A study of Glycine max with 54 samples.

Results

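MYB transcription factors of the developing soybean seed were described here through the Affymetrix probe sets that the array annotation gives a single gene symbol made of MYB and a digit. The array held 102 such probe sets for 65 genes. A gene was kept when a probe set reached a log2 signal of 5 or more in at least 3 of the 54 arrays, and its probe set with the highest mean signal stood for it, which left 44 genes. The other 21 genes stayed under that level, and the highest single value among them was 4.68, for MYB120. The RefSeq gene table lists MYB120 as a synonym of MYB64, which was kept, so MYB120 may not be a separate gene. The 44 genes belong to a table of 37744 probe sets, of which 26482 passed the same filter and were tested.

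MYB proteins bind DNA through imperfect repeats of a helical domain rich in tryptophan. In plants the family with a pair of repeats is among the largest groups of transcription factors, and its members control phenylpropanoid and flavonoid synthesis, cell fate and stress responses. Proteins with a single repeat include the morning-phased clock factors and regulators of isoflavonoid synthesis. Soybean MYB numbers do not match those of Arabidopsis genes, so no role is carried over from an Arabidopsis gene of the same number.

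Total RNA of whole developing seeds was measured in the cultivars Archer and Minsoy and in a high and a low yield recombinant inbred line derived from their cross, all field grown, with no treatment named in the labels. The stages were seeds of 2, 3.5 and 5-6 mm, and every line had 3 arrays per stage in a given year. Archer and Minsoy were sampled in 2007 and in 2008, and the recombinant lines in 2007, which gives 18 groups. In 2007 each line was a single row, and in 2008 replicates were planted at different times in blocks and the seeds of both rows of a replicate were pooled. High and low yield were 1 line each, so yield class and line cannot be told apart. The 2007 samples of a group came from the same row, so line differences of 2007 cannot be told apart from differences between rows. The p-values rest on a spread between samples pooled over the 18 groups. For 2007 they do not measure the spread between rows. Whole seeds hold seed coat, endosperm and embryo, and fewer cells of a type cannot be told apart from less RNA per cell.

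The deposited values formed 3 sets: parents of 2007, parents of 2008 and recombinant lines. The lowest log2 value was 1.96 in both parental sets and -1.56 in the recombinant set, and the medians of single arrays lay at 7.20 to 7.29, 7.22 to 7.32 and 7.51 to 7.73. Levels were therefore compared only within a set. In the parents, year went together with set and with field layout, so differences between years cannot be told apart from these. Arrays of one group correlated at 0.955 to 0.999 (median 0.992), and no 2 arrays were identical. The 6 storage genes used as embryo markers (GM2S-1, GY1, GY2, KTI1, LOX2, P34) rose from 2 to 5-6 mm by a median log2 of 10.51, 7.70 and 5.87 in the 3 sets, with 6, 6 and 3 of 6 called. Of 3 seed coat markers (the peroxidase gene Ep, HPS and SCB1), 2 rose and 1 fell in the parents of 2007 and none was called in the other sets. Their part in the MYB results was not tested.

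Several arrays stood apart from their labels. A stage score was built from 200 probe sets each way that change with stage in the other sets, MYB probe sets left out. It placed replicate 1 of Minsoy 2 mm in 2008 at 5-6 mm, replicate 1 of Minsoy 5-6 mm in 2008 at 2 mm, and replicate 1 of the low yield line at 2 mm at 5-6 mm. A line score, scaled to 0 at the Minsoy median and 1 at the Archer median, was 0.32 and 0.46 in replicates 2 and 3 of Minsoy 5-6 mm in 2007, against 0.20 or less in every other Minsoy array and 0.87 or more in every Archer array. On a like score for the recombinant lines (0 low yield, 1 high yield), replicate 1 of the low yield line at 2 mm stood at 0.96 and replicate 1 of the high yield line at 5-6 mm at -0.01. Intermediate scores were found in the other replicates of high yield 5-6 mm (0.50 and 0.46) and in high yield 3.5 mm replicates 1 and 3 (0.73 and 0.27). Low yield 3.5 mm replicate 3 was also intermediate (0.26). All 3 high yield arrays of 5-6 mm thus stood below those of 2 mm. The title and the description of low yield 3.5 mm replicate 3 name different lines, and the title was used. In the recombinant set, 4 arrays at 3.5 mm had an actin 3' minus 5' difference above 2.5. Results are given with all arrays and, where they moved, without the arrays concerned.

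The mean of a probe set over a set of 18 arrays ran from 2.93 to 13.76 (median 7.90) in the parents of 2007, from 2.11 to 14.06 (median 8.16) in the parents of 2008 and from 2.73 to 14.60 (median 8.52) in the recombinant lines. Means of 10 or more were found for 9, 8 and 11 probe sets, and means under 5 for 5, 7 and 9. Probe sets differ in how well they hybridize, so these levels do not rank the genes. MYB172 had the highest signal of all, between 13.37 and 15.02 on every array. Genes studied for stress tolerance or isoflavone synthesis were among those under the filter: MYB29 reached at most 3.09, MYB76 2.21, MYB84 4.33, MYB92 3.61 and MYB183 3.76. A probe set annotated to both MYB143 and MYB183 had a mean of 9.14 over the 54 arrays, so MYB183 cannot be called absent. MYB39 and MYB174 were not analysed here.

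Between 2 and 5-6 mm, 30 of the 44 genes changed in at least 1 set, 15 upward and 15 downward, and 0 were called in opposite directions in different sets (0.0302% of all probe sets were). The share of all 26482 probe sets called in at least 1 set was 60.1%. MYB64, MYB68, MYB79, MYB177 and MYB179 rose in all 3 sets (4.92% of all probe sets did) and MYB142 fell in all 3 (4.28% of all). MYB48, MYB81, MYB127 and MYB178 rose in 2 sets (9.15% of all), and MYB51, MYB57, MYB138, MYB172, MYB175 and MYB176 fell in 2 (16.2% of all). The remaining 14 changed genes were called in 1 set. With limma and Benjamini-Hochberg adjustment over all 26482 probe sets, 24 MYB genes were called in the parents of 2007, where 53.4% of all probe sets were called. Of these, 13 were higher and 11 lower, against 22.6% and 30.8% of all probe sets. In the parents of 2008, 7 were called (11.2% of all), 6 higher (6% of all) and 1 lower (5.18% of all). In the recombinant lines 21 were called (39.3% of all), 10 higher (15.3% of all) and 11 lower (24% of all). The MYB shares of 54.5%, 15.9% and 47.7% were near these backgrounds. Among the calls are MYB124, MYB127, MYB142 and MYB145, which reached the filter level at some stages only, mainly those at which they are high. The other 40 genes made 20, 6 and 19 of the calls. Median log2 changes of the 44 were 0.08, 0.11 and -0.03, beside -0.06, -0.05 and -0.06 over all probe sets.

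Within single lines, 11 MYB genes were called in Archer in 2007 (29.5% of all probe sets), 23 in Minsoy in 2007 (43.6%), 4 in Archer in 2008 (10.7%) and 21 in the high yield line (39%). With limma none was called in Minsoy in 2008 (0% of all; 8 MYB genes at an unadjusted p under 0.05) or in the low yield line (0.306% of all; 12 unadjusted), which hold the 3 arrays placed at another stage. Without those 3 arrays, 17 genes were called in 2008 (34.2% of all probe sets) and 20 in the recombinant lines (46.8%). MYB48 and MYB127 then rose in all 3 sets, and MYB51, MYB57, MYB138 and MYB175 joined MYB142 in falling in all 3. That made 7 genes up and 5 down, beside 10.9% and 14.3% of all probe sets. MYB127 and MYB142 were admitted by the stage at which they are high. Their part in these counts, and in those with 5 arrays left out, is a description, without a test. Without the 2 Minsoy 5-6 mm arrays of 2007, 14 genes were called in that set (37.9% of all probe sets), 13 of them among the 24. The calls that were lost belonged to MYB50, MYB56, MYB57, MYB70, MYB81, MYB109, MYB112, MYB145, MYB172, MYB173 and MYB176. With all arrays otherwise in the fit, none was called in 2008 when replicate 2 or 3 of Minsoy at 2 mm or at 5-6 mm was the single array left out. With all 5 arrays left out, the genes called in all 3 sets were the 7 that rose and the 5 that fell with 3 arrays left out, beside 10.6% and 13.8% of all probe sets.

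**Figure D1:**
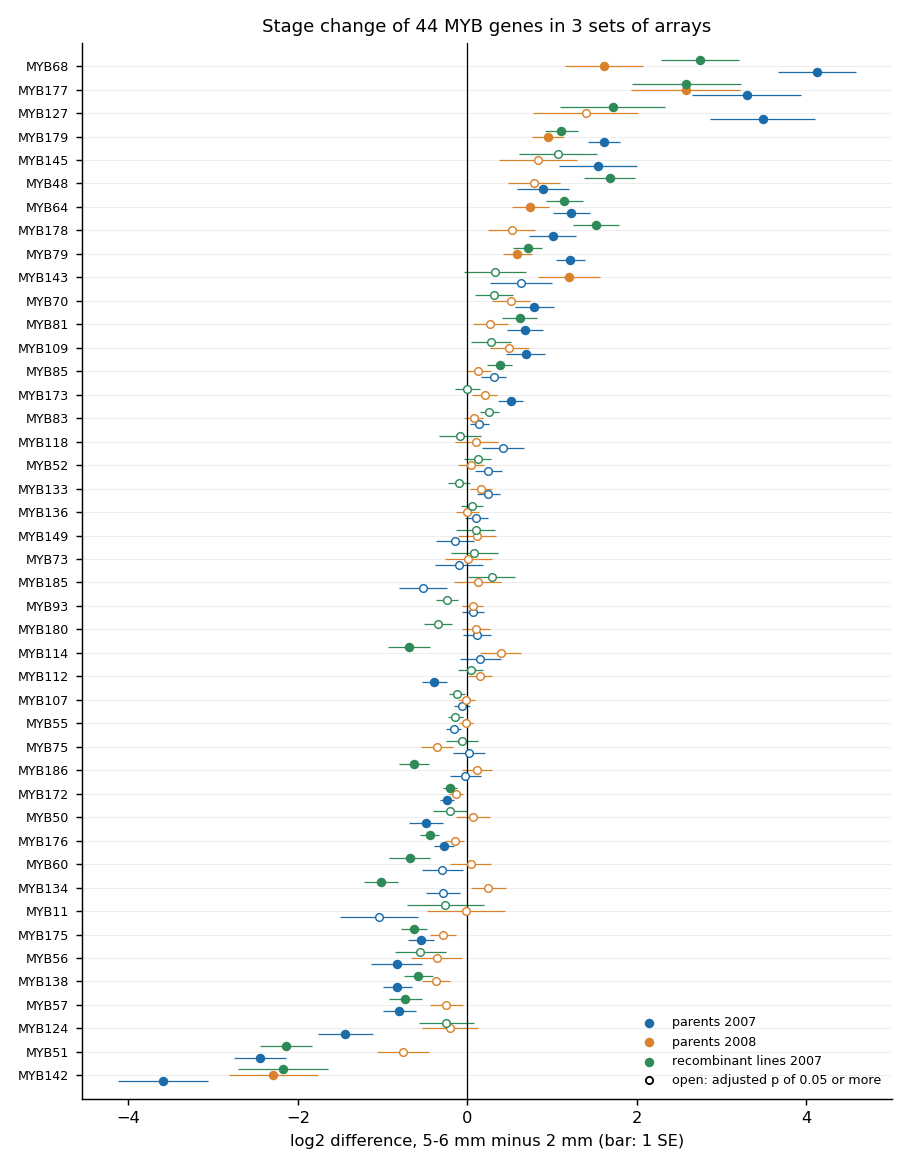
Log2 difference between 5-6 mm and 2 mm seeds (x axis) for each of the 44 MYB genes (y axis, ordered by the sum over sets), in the parents of 2007, the parents of 2008 and the recombinant lines. Points are limma estimates with bars of 1 SE, filled where the adjusted p was under 0.05; MYB68, MYB177 and MYB127 lie farthest right, and MYB142 and MYB51 farthest left.

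MYB68, a gene tied to salt and alkali tolerance in soybean, had the largest fitted rise of the 44 in the parents of 2007 and in the recombinant lines with all arrays in the fit, and MYB177 had it in 2008. In Archer in 2007 its log2 signal was 4.55, 4.34 and 3.80 at 2 mm, 6.13, 5.22 and 7.74 at 3.5 mm, and 7.97, 8.69 and 8.16 at 5-6 mm. In Minsoy in 2007 it was 5.13, 5.45 and 6.27, then 7.72, 7.34 and 9.49, then 9.35, 9.81 and 10.27. The 2 mm and 5-6 mm arrays did not overlap in either line. In 2008 Archer rose from 6.16, 6.89 and 6.89 at 2 mm to 8.23, 9.27 and 8.33 at 5-6 mm. Minsoy in 2008 had 8.79, 6.92 and 6.89 at 2 mm and 7.32, 8.88 and 10.17 at 5-6 mm, where the 8.79 and the 7.32 are the arrays placed at the other stage and are the ones that overlap. The high yield line had 4.39, 4.36 and 4.35 at 2 mm and 7.69, 6.91 and 7.24 at 5-6 mm, without overlap. The low yield line had 6.48, 4.48 and 4.33 and then 6.85, 8.57 and 7.56, also without overlap although the 6.48 is the array placed at 5-6 mm. The change was 4.12 (SE 0.46, adjusted p = 1.32e-08) in 2007, a 17.4-fold rise. It was 1.61 (SE 0.46, adjusted p = 0.0255) in 2008 and 2.74 (SE 0.46, adjusted p = 1.98e-05) in the recombinant lines. Without the arrays in doubt these values were 3.89, 2.30 and 3.09, with 2 arrays left out for the first and 3 for the others.

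MYB177, which raises drought and salt tolerance when expressed in Arabidopsis, rose by 3.30 (SE 0.64, adjusted p = 5.88e-05) in 2007, 2.58 (SE 0.64, adjusted p = 0.0180) in 2008 and 2.58 (SE 0.64, adjusted p = 0.00168) in the recombinant lines. Archer went from 3.70, 4.66 and 4.36 to 6.41, 7.34 and 6.40 in 2007, and Minsoy from 3.72, 3.53 and 4.34 to 7.58, 8.40 and 7.96. The stages did not overlap in either parent, and most of the rise came late: the 2007 step from 3.5 to 5-6 mm was 1.96. Archer in 2008 went from 3.37, 3.49 and 3.31 to 5.90, 5.44 and 6.88. Minsoy in 2008 had 5.34, 2.68 and 2.40 and then 4.55, 6.00 and 7.27, with overlap only through replicate 1 of either stage. The high yield line had 5.97, 4.98 and 3.80 at 2 mm and 7.43, 8.08 and 7.99 at 5-6 mm, and the low yield line 7.89, 5.40 and 3.89 and then 8.59, 7.72 and 7.62. In the low yield line only the array placed at another stage reached into the range of 5-6 mm. A further probe set of MYB177 rose less, by 1.59, 1.29 and 1.61, and was called in all 3 sets.

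MYB127 reached a log2 of 5 on 9 arrays, 7 of them of 5-6 mm and the other two labelled 2 mm but placed at 5-6 mm by the stage score. It was admitted by the stage at which it is high, so its differences are a description, without a test. It was at the floor of each set in nearly every array of 2 and 3.5 mm seeds. At 5-6 mm it reached 4.74, 6.60 and 7.15 in Archer and 3.07, 6.53 and 5.95 in Minsoy in 2007, and 4.22, 5.83 and 6.89 in the high yield line. At 2 mm it exceeded 2.5 on 2 arrays, with 5.70 in Minsoy 2008 replicate 1 and 6.26 in low yield replicate 1. The fitted stage difference was 3.48 (SE 0.62) in 2007, 1.39 in 2008 and 1.71 in the recombinant lines. Without the 3 arrays the last 2 became 2.37 and 2.47. Because it starts from the floor, the size of its rise is not exact. The low yield line at 5-6 mm had 2.12, 2.09 and 4.15, against 4.22 to 6.89 in the high yield line. The lowest high yield array, 4.22, stood above the highest low yield array, 4.15, by a small margin. The 4.22 is replicate 1, the array with the line score of the low yield line (-0.01).

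MYB179 and MYB79 share a probe set stem on the array, so their signals may not be independent, and both rose at lower spread. MYB179 in Archer in 2007 was 5.98, 6.05 and 6.01 at 2 mm, 6.88, 6.60 and 7.37 at 3.5 mm, and 7.81, 7.47 and 7.57 at 5-6 mm. In Minsoy in 2007 it was 5.76, 6.14 and 6.10, then 7.47, 7.09 and 7.74, then 7.67, 7.17 and 8.01. Both parents rose by 3.5 mm without overlap with 2 mm. The change was 1.61 (SE 0.19, adjusted p = 3.28e-08), 0.95 (adjusted p = 0.0164) and 1.11 (adjusted p = 2.62e-05) in the 3 sets. MYB79 rose by 1.21, 0.59 and 0.71, and its 2007 step from 2 to 3.5 mm was 0.96. MYB64 rose by 1.23 (SE 0.22, adjusted p = 1.77e-05), 0.74 (adjusted p = 0.0286) and 1.14 (adjusted p = 0.000105). Its 2007 values went from 6.01, 5.96 and 5.84 to 7.09, 7.30 and 7.38 in Archer and from 5.74, 6.05 and 6.30 to 7.16, 7.51 and 6.82 in Minsoy, again without overlap.

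MYB48 and MYB178 changed most in the recombinant lines. MYB48 rose there by 1.68 (SE 0.30, adjusted p = 5.42e-05), from 6.05, 6.91 and 7.45 to 9.05, 8.94 and 8.54 in the high yield line. In the low yield line it had 8.73, 7.40 and 6.56 at 2 mm and 8.66, 8.65 and 9.32 at 5-6 mm, and only the array placed at 5-6 mm overlapped. MYB178 rose by 1.52 (adjusted p = 5.33e-05), from 5.08, 5.83 and 5.85 to 7.18, 7.70 and 7.68 in the high yield line. In the parents of 2007 the rises were 0.89 and 1.01, both called. In 2008 they were 0.79 (adjusted p = 0.0842) and 0.52 (adjusted p = 0.212). MYB81, linked to abiotic stress in soybean, rose by 0.68 in 2007 and 0.61 in the recombinant lines, with 0.27 (adjusted p = 0.422) in 2008.

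MYB145 reached a log2 of 5 on 4 arrays only, 1 of 3.5 mm and 3 of 5-6 mm, so its stage difference is also a description. It lay between 2.15 and 2.38 on most arrays and was high in single arrays of Minsoy, with 5.35 in replicate 3 of 3.5 mm in 2007, 3.26, 4.57 and 6.64 at 5-6 mm in 2007 and 2.37, 3.77 and 5.95 in 2008. The low yield line had 2.50, 5.34 and 4.27 at 5-6 mm, whereas Archer in 2007 had 2.29, 2.93 and 2.84 and the high yield line 3.21, 2.36 and 2.47. The fitted stage difference in 2007 was 1.54, and 0.76 without the 2 Minsoy arrays. MYB143 was called only in 2008 (1.20, SE 0.37, adjusted p = 0.0329), and it was 1.84 without the 3 arrays. Its changes in the other sets were 0.63 (adjusted p = 0.148) and 0.32 (adjusted p = 0.515), and the year difference in its stage change was not called.

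**Figure D2:**
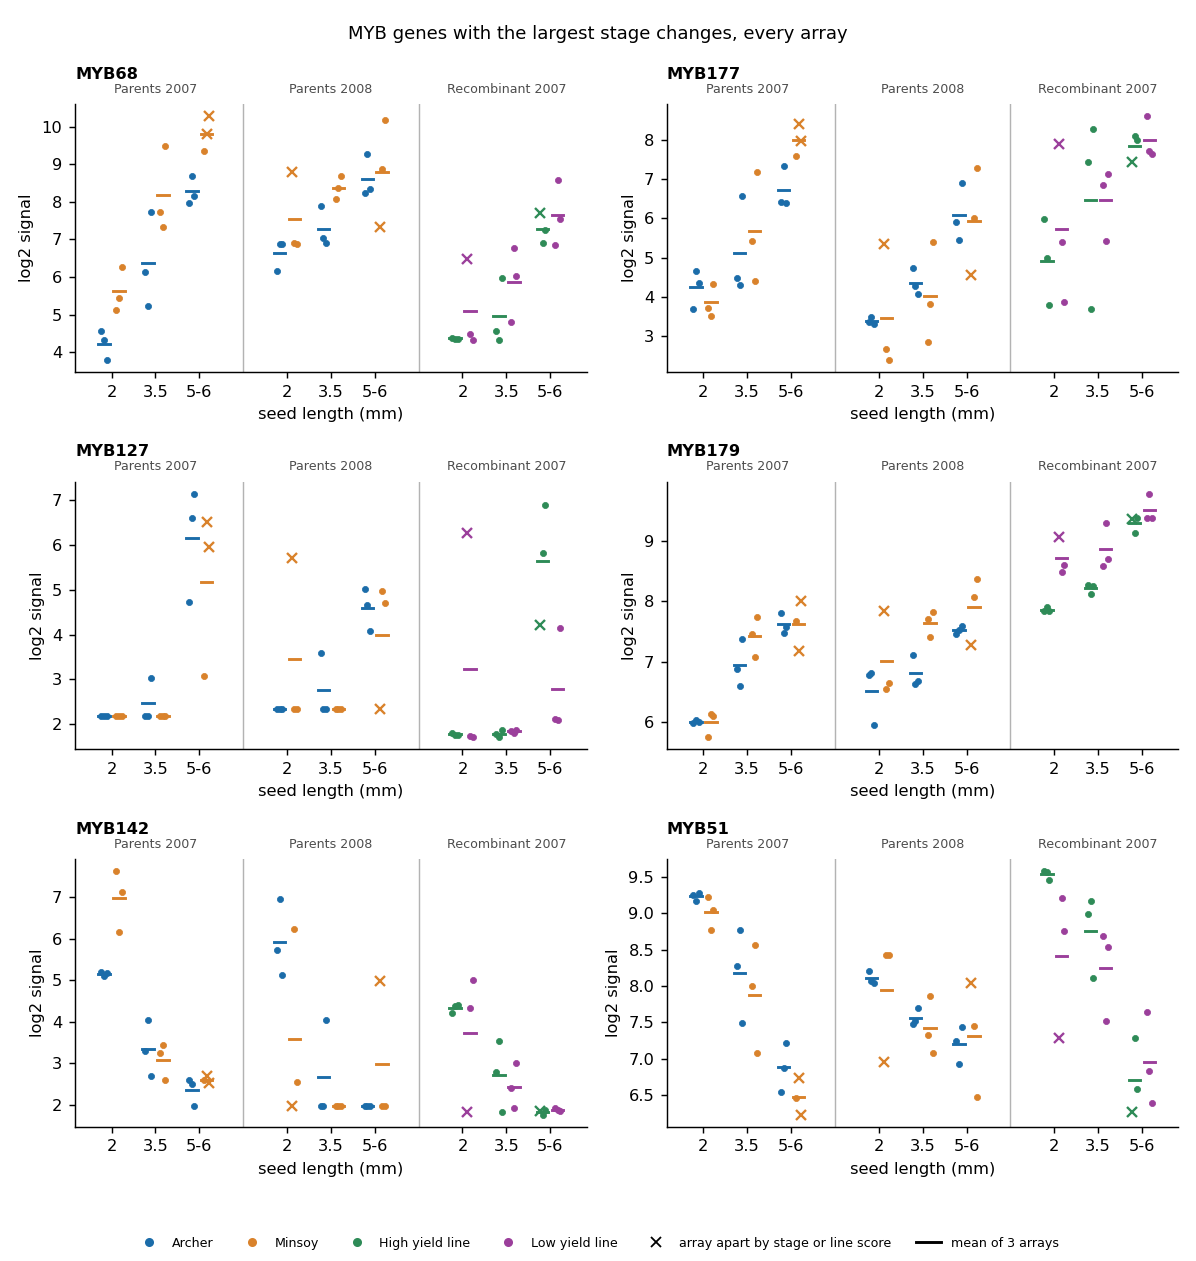
Log2 signal (y axis) of MYB68, MYB177, MYB127, MYB179, MYB142 and MYB51 on every array by seed length in mm (x axis), with the 3 sets separated by vertical lines and the 4 lines in colour. Circles are single arrays, crosses are arrays that stood apart by stage or line score, and bars are means of 3 arrays; MYB142 and MYB51 are high at 2 mm and low at 5-6 mm, the other 4 the reverse, and the crosses at 2 mm lie nearer to the other arrays of 5-6 mm than to those of 2 mm in most panels.

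MYB142 was lower at 5-6 than at 2 mm in every set. It reached a log2 of 5 on 11 arrays, all of 2 mm seeds, so it was admitted by the stage at which it is high and its stage difference is given as a description, without a test. In Archer in 2007 it was 5.19, 5.10 and 5.17 at 2 mm, 3.29, 4.03 and 2.68 at 3.5 mm and 2.59, 2.50 and 1.96 at 5-6 mm. In Minsoy it was 7.63, 6.16 and 7.12, then 3.24, 3.43 and 2.59, then 2.59, 2.68 and 2.52. The 2 mm arrays did not overlap with either later stage, and most of the fall (-2.85 of -3.59) came before 3.5 mm. In 2008 Archer had 5.72, 6.95 and 5.12 at 2 mm and the floor of 1.96 on all 3 arrays at 5-6 mm. Minsoy in 2008 had 1.96, 6.24 and 2.54 at 2 mm and 4.99, 1.96 and 1.96 at 5-6 mm. The 1.96 and the 4.99 again came from the replicates placed at the other stage, and replicate 3 at 2 mm was also low. The high yield line fell from 4.22, 4.38 and 4.39 to 1.84, 1.76 and 1.87. The low yield line had 1.81, 4.33 and 5.01 and then 1.91, 1.87 and 1.83, with the 1.81 on the array placed at 5-6 mm. The fitted differences were -3.59 (SE 0.53), -2.29 and -2.18. The late values lie at the floor, so these sizes are not exact.

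MYB51 fell by 2.45 in 2007 (SE 0.30, adjusted p = 6.95e-08) and by 2.14 in the recombinant lines (SE 0.30, adjusted p = 1.97e-06), in both steps of the parents of 2007. Archer in 2007 had 9.25, 9.16 and 9.29, then 8.27, 8.76 and 7.50, then 6.54, 6.88 and 7.22. Minsoy in 2007 had 9.23, 8.77 and 9.04, then 8.00, 8.57 and 7.08, then 6.46, 6.73 and 6.23. Each stage lay below the one before in both parents. In 2008 the fall was 0.76 (adjusted p = 0.0926) with all arrays and 1.18 (adjusted p = 0.000940) without the 3. Archer went from 8.21, 8.06 and 8.04 to 7.25, 6.93 and 7.44 in that year, without overlap. The high yield line fell from 9.58, 9.57 and 9.46 to 6.26, 7.28 and 6.59. Another MYB51 probe set fell by 2.62, 1.20 and 2.17 and was called in all 3 sets. The stage change differed between the years for 2 MYB genes (2.27% of all probe sets), MYB51 with 2008 minus 2007 at 1.69 (adjusted p = 0.0298) and MYB68 at -2.50 (adjusted p = 0.0330). Without the 3 arrays neither was called (1.26, adjusted p = 0.0886, and -1.82, adjusted p = 0.124).

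Smaller falls were seen in MYB57, MYB138, MYB175 and MYB176. MYB138 fell by 0.83 (adjusted p = 0.000104) in 2007 and 0.58 (adjusted p = 0.00656) in the recombinant lines, but its other probe set changed by 0.11, 0.05 and 0.05 in the 3 sets, none called, so the fall rests on 1 probe set. MYB57 fell by 0.80 (adjusted p = 0.000781) and 0.73 (adjusted p = 0.00308); without the 2 Minsoy arrays the 2007 value was -0.47 (adjusted p = 0.0831). Of its other probe sets, one had -0.46 (adjusted p = 0.277) and -0.49 (adjusted p = 0.283), neither called. Another had -0.60 (adjusted p = 0.00672) and -0.69 (adjusted p = 0.00328), both called. MYB175 fell by 0.55 in 2007 and 0.63 in the recombinant lines. MYB124 had a fitted difference of -1.44 in 2007, given as a description, since the 3 arrays at 5 or more that admitted it were of 2 and 3.5 mm. The other arrays of that set lay between 2.75 and 4.13. MYB172 had called falls of 0.24 in 2007 (adjusted p = 0.0139) and 0.21 in the recombinant lines (adjusted p = 0.0455). Its other probe sets fell as well, one by 0.36 and 0.30 and another by 1.42 (adjusted p = 0.00229) and 1.50 (adjusted p = 0.00231), so the size of its fall depends on the probe set.

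MYB176 is a single-repeat factor that activates the chalcone synthase gene CHS8 and thereby isoflavonoid synthesis in soybean. In Archer in 2007 it had 11.91, 11.82 and 11.52 at 2 mm and 11.14, 11.15 and 11.42 at 5-6 mm, without overlap. In Minsoy in 2007 it had 11.68, 11.30 and 11.43 and then 11.31, 11.34 and 11.64, which overlap. Its fall was 0.28 in 2007 (SE 0.11, adjusted p = 0.0406), 0.15 in 2008 (adjusted p = 0.404) and 0.45 in the recombinant lines (SE 0.11, adjusted p = 0.00212). The 2007 call was lost in 10 of 27 alternatives, with changes of -0.33 to -0.20, and the call in the recombinant lines in none run. MYB175 and MYB176 share a probe set stem, and of the probe sets annotated to both, one fell by 0.46 in 2007 and 0.50 in the recombinant lines and the other had -0.40 (adjusted p = 0.128) and -0.51 (adjusted p = 0.0666), so they cannot be told apart with certainty. CHS8 fell by 1.48 (adjusted p = 0.00716), 1.06 (adjusted p = 0.124) and 1.67 (adjusted p = 0.00419). The isoflavone synthase genes IFS1 and IFS2 rose by 6.51 and 6.40 in 2007, 3.66 and 4.25 in 2008, and 4.30 and 3.87 in the recombinant lines, all called. Of the 28 flavonoid pathway genes, 10 rose and 9 fell in 2007, beside 22.6% and 30.8% of all probe sets. In 2008, 4 rose and 0 fell, beside 6% and 5.18% of all. In the recombinant lines 9 rose and 1 fell, beside 15.3% and 24% of all. The median changes of the 28 were -0.08, -0.07 and 0.08, beside -0.06, -0.05 and -0.06 for all probe sets. MYB133, a CCA1-like factor that also acts in isoflavonoid synthesis, changed by 0.25, 0.16 and -0.10, none called. Of its other probe sets, one changed by -0.17, 0.12 and -0.49, the last called (adjusted p = 0.0102), and was higher in the high yield line by 0.43 (adjusted p = 0.0327), and another changed by 0.47, 0.32 and -0.12, none called. MYB118, studied for drought and salt tolerance, changed by 0.42, 0.11 and -0.09, none called.

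The steps between neighbouring stages placed these changes in time. From 2 to 3.5 mm, 8 MYB genes were called in the parents of 2007 (20.9% of all probe sets): MYB68 rose by 2.35, MYB179 by 1.18, MYB48 by 1.05, MYB79 by 0.96 and MYB64 by 0.81, and MYB142 fell by 2.85, MYB51 by 1.09 and MYB138 by 0.63. From 3.5 to 5-6 mm, 12 were called (20.9% of all), with MYB127 at 3.34, MYB177 at 1.96 and MYB68 at 1.77. MYB142 counts among the 8 and MYB127 among the 12. Both were admitted by the stage at which they are high, so their steps are a description, without a test. In the recombinant lines 10 were called in the first step (30.4% of all) and 21 in the second (58.2% of all). In 2008 limma called none in either step, as it called 0 of 26482 probe sets, while 5 and 4 MYB genes had an unadjusted p under 0.05.

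MYB73, which raises lipid content when overexpressed in transgenic plants, had its highest mean at 3.5 mm in all 6 combinations of line and year, as did MYB52. MYB73 in Archer in 2007 was 11.72, 11.58 and 11.96, then 12.16, 12.36 and 12.58, then 12.47, 11.49 and 11.76. In the low yield line it was 12.02, 11.96 and 12.00, then 12.55, 12.63 and 12.54, then 12.61, 11.37 and 11.90. The 3.5 mm arrays lay above the 2 mm arrays in both cases, and 1 array at 5-6 mm reached their level. The 3.5 mm mean against the mean of the other stages was 0.67 (adjusted p = 0.186) in 2007, 0.53 (adjusted p = 1) in 2008 and 0.60 (SE 0.24, adjusted p = 0.0398) in the recombinant lines. In that contrast 12 MYB genes were called in the recombinant lines, where 47.5% of all probe sets were, and 4 arrays at 3.5 mm in that set had high actin differences, whose part in the result was not tested. In the parents none was called, with 11 and 3 at an unadjusted p under 0.05, beside 1.42% and 0% of all probe sets called. MYB73 was not called between 5-6 and 2 mm in any set (-0.10, 0.01 and 0.08).

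As a description over the 54 arrays, deviations from the group means of MYB11 correlated with those of MYB56 at 0.88 and with those of MYB73 at 0.82; the values of an array share its library and normalization. Among all 946 pairs of members the median correlation was 0.019, and 3 pairs reached 0.8. The third was MYB93 with MYB180 at 0.92, whose genes also share a probe set. A single array weighs heavily in MYB11 and MYB56: replicate 2 of Minsoy 5-6 mm in 2007, one of the arrays with an intermediate line score, had 3.74 for MYB11, against 9.85 and 8.77 in the other replicates. On the same array MYB56 had 4.36, against 7.79 and 7.06, and MYB73 had 9.43, against 12.20 and 12.18. The fall of MYB56 in 2007 was 0.84 (adjusted p = 0.0184) with all arrays and 0.14 (adjusted p = 0.658) without the 2 Minsoy arrays.

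MYB114 carries the clock-type synonyms GmLHY2b and LCL2 in the RefSeq gene table. That table also lists MYB134 as a synonym of MYB114, and the array's own MYB134 gene was not matched there. Both fell in the recombinant lines, with MYB186. MYB134 fell by 1.02 (SE 0.20, adjusted p = 0.000138), from 12.51, 12.55 and 12.11 to 10.90, 11.50 and 11.17 in the high yield line and from 11.69, 12.52 and 11.75 to 11.88, 10.88 and 10.69 in the low yield line. The stages were separate in the high yield line and overlapped in the low yield line. MYB114 fell by 0.69 (adjusted p = 0.0230) and MYB186 by 0.63 (adjusted p = 0.00506). In the parents the values were -0.29 and 0.25 for MYB134, 0.15 and 0.39 for MYB114, and -0.02 and 0.11 for MYB186, none called. Among genes named as morning clock factors, LCL3 changed by -1.06 (adjusted p = 0.000424), 0.11 (adjusted p = 0.813) and -1.45 (adjusted p = 2.06e-05), and LHY by -0.26 (adjusted p = 0.151), 0.12 (adjusted p = 0.662) and -0.68 (adjusted p = 0.000627). The hour of collection is not given in the labels, and its part in these results was not tested. The difference in stage change between the recombinant lines and the parents of 2007 was called for no MYB gene (9 at an unadjusted p under 0.05; 0.0831% of all probe sets called).

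**Figure D3:**
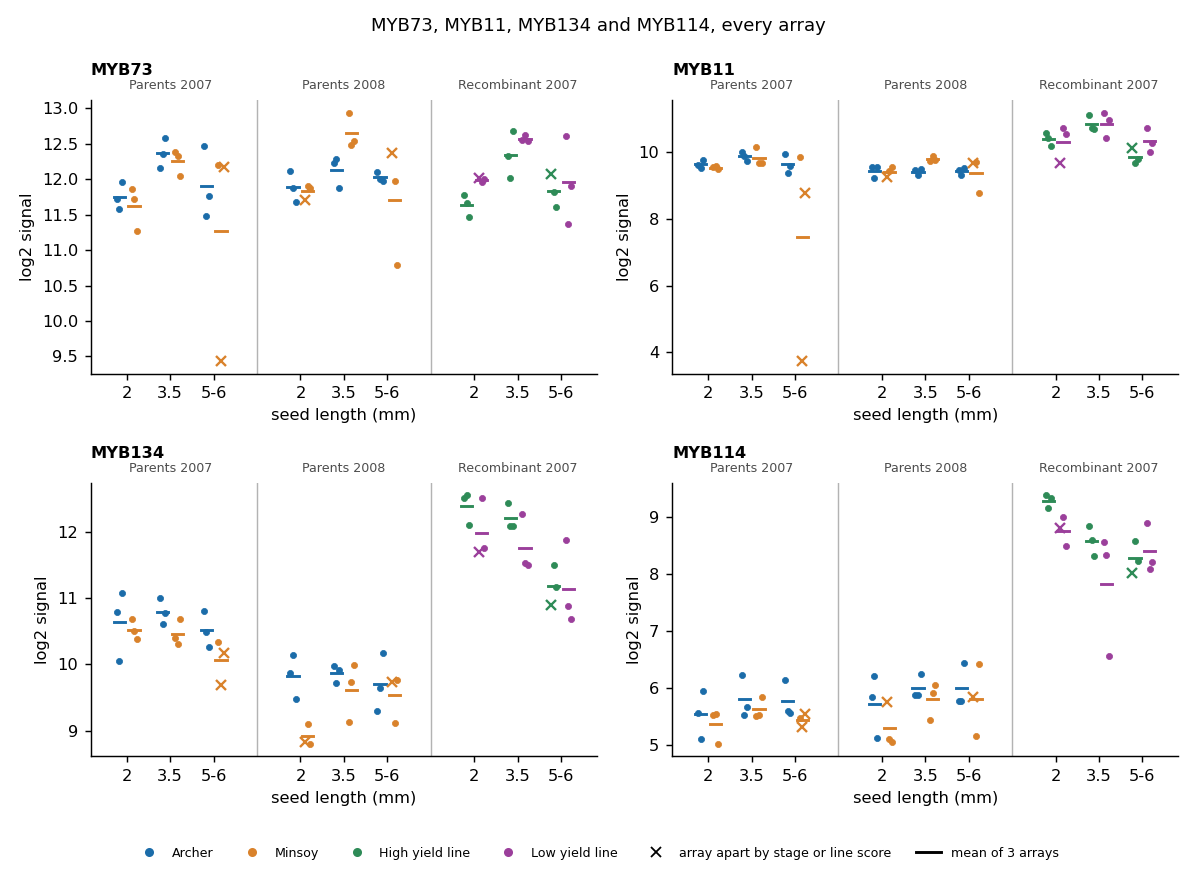
Log2 signal (y axis) of MYB73, MYB11, MYB134 and MYB114 on every array by seed length in mm (x axis), with sets, lines and symbols as in the plot of genes with large stage changes. MYB73 has its highest means at 3.5 mm, MYB11 has 1 low Minsoy array at 3.74, and the called falls of MYB134 and MYB114 are those of the recombinant set.

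Between the parents, the MYB gene that differed in both years was MYB185, for which no function was taken from the sources used. Its log2 signal in 2007 was 4.42, 4.28 and 4.69 in Archer and 6.92, 6.66 and 6.82 in Minsoy at 2 mm, and 4.88, 5.16 and 4.78 against 7.49, 7.13 and 6.43 at 3.5 mm. At 5-6 mm Archer had 4.52, 4.82 and 4.77 and Minsoy 7.26, 4.81 and 4.47. Minsoy was higher without overlap at 2 and 3.5 mm, and at 5-6 mm replicates 2 and 3, those with an intermediate line score, lay within the range of Archer or below it. In 2008 Archer had 6.01, 5.76 and 5.66, then 5.81, 5.81 and 5.56, then 6.26, 5.73 and 5.34. Minsoy had 7.61, 6.68 and 7.79, then 7.34, 7.49 and 7.44, then 7.60, 8.05 and 7.26, above Archer at every stage without overlap. Archer minus Minsoy was -1.74 (SE 0.23, adjusted p = 5.70e-07) in 2007 and -1.70 (SE 0.23, adjusted p = 1.28e-06) in 2008, so that Minsoy was 3.35-fold and 3.25-fold higher. Without the 2 arrays the 2007 value was -2.32 (adjusted p = 1.19e-11). In the recombinant lines MYB185 lay between 3.15 and 4.58 on all 18 arrays, and high minus low yield was 0.05 (adjusted p = 0.963). The difference between years in the parental line difference was 0.04 (SE 0.32, adjusted p = 0.996) with all arrays.

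**Figure D4:**
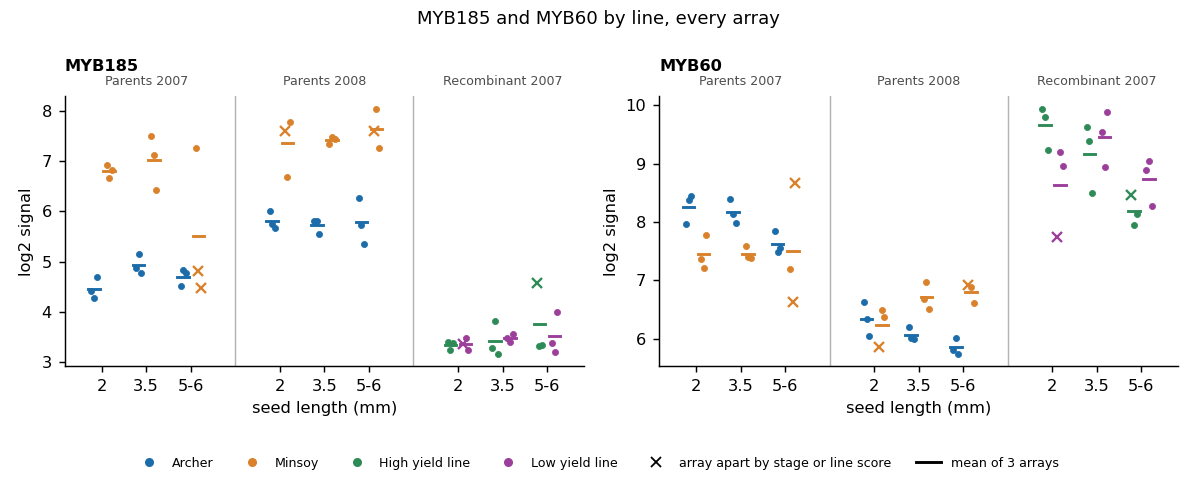
Log2 signal (y axis) of MYB185 and MYB60 on every array by seed length in mm (x axis), with sets, lines and symbols as in the plot of genes with large stage changes. MYB185 is higher in Minsoy than in Archer in both years except on the 2 crosses of 5-6 mm in 2007, and MYB60 is higher in Archer in 2007 at 2 and 3.5 mm and higher in Minsoy in 2008 at 5-6 mm.

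Over the 3 stages, 2 MYB genes differed between the parents in 2007 (9.09% of all probe sets were called; 9 MYB genes had an unadjusted p under 0.05) and 2 in 2008 (2.96% of all; 12 unadjusted). The second gene of 2007 was MYB68, with -1.58 (SE 0.38, adjusted p = 0.00431), higher in Minsoy. The mean stage scores of that year were -3.50, 0.01 and 2.10 in Archer and -2.47, 1.53 and 2.33 in Minsoy. With the score as a covariate the MYB68 value was -0.75 and not called; the part of stage in the line difference was not tested further. The second gene of 2008 was MYB179, with -0.57 (SE 0.16, adjusted p = 0.0311), higher in Minsoy by 1.48-fold. In 2007 it was -0.16 (adjusted p = 0.601), and the difference between the years was -0.41 (adjusted p = 0.541). The 2008 call was lost in 11 of 28 alternatives (-0.67 to -0.43 over all), on leaving out Archer 2 mm replicate 3, 3.5 mm replicate 2 or 3, 5-6 mm replicate 1 or 2, Minsoy 2 mm replicate 1, 3.5 mm replicate 1 or 3, or 5-6 mm replicate 2 or 3, or on fitting the 2008 arrays alone.

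Between the recombinant lines MYB179 was the MYB gene called, again at -0.57 (SE 0.16, adjusted p = 0.0188), lower in the high yield line, where 5.37% of all probe sets were called and 6 MYB genes had an unadjusted p under 0.05. The high yield line had 7.84, 7.90 and 7.84 at 2 mm, 8.27, 8.12 and 8.25 at 3.5 mm and 9.36, 9.13 and 9.37 at 5-6 mm. The low yield line had 9.06, 8.49 and 8.59, then 8.58, 9.29 and 8.70, then 9.37, 9.77 and 9.38. The lines did not overlap at 2 and 3.5 mm and met at 5-6 mm, and the 9.06 is the array placed at another stage. At 2 mm alone the difference was -0.85 (adjusted p = 0.0422, with 7.87% of all probe sets called). Without the 3 arrays placed at another stage this 2 mm difference was -0.68 (adjusted p = 0.0944) and not called. At 3.5 mm no MYB gene was called (1.66% of all, 5 unadjusted). Over the 3 stages, the value without those 3 arrays was -0.52 (adjusted p = 0.00743). Without the 2 arrays with the line score of the other line it was -0.53 (adjusted p = 0.0534), and MYB75 at -0.56 and MYB186 at 0.52 were called in its place. The call was also lost without low yield 3.5 mm replicate 2 or 5-6 mm replicate 2. At 5-6 mm alone, 0 of 26482 probe sets were called between the recombinant lines by limma, with 4 MYB genes at an unadjusted p under 0.05.

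At single stages of 2007, 3 MYB genes were called between the parents at 5-6 mm (6.91% of all probe sets): MYB145 at -2.14, admitted by Minsoy and low yield arrays alone, MYB180 at -0.76 and MYB11 at 2.19. None of these was called without the 2 Minsoy arrays, whereas MYB185 then was, at -2.56 (adjusted p = 0.000190). MYB185 was the gene called at 2 mm (2.08% of all) and at 3.5 mm (1.47% of all), at -2.34 and -2.08. In 2008 it was called at each stage with all arrays, at -1.55, -1.69 and -1.86, with 0.717%, 0.589% and 0.914% of all probe sets called. Without the 3 arrays placed at another stage its 2 mm value of 2008 was -1.43 (adjusted p = 0.315), not called. Its 3.5 mm value stayed called in that fit (-1.69, adjusted p = 0.0293). No MYB gene had a stage change that differed between lines in any set (10, 4 and 4 at an unadjusted p under 0.05; 0.136%, 0% and 1.18% of all probe sets called).

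The parental line difference changed between years for MYB60 alone among the 44 (1.47% of all probe sets were called). In 2007 Archer had 7.97, 8.38 and 8.44 at 2 mm, 8.40, 8.13 and 7.98 at 3.5 mm and 7.84, 7.48 and 7.55 at 5-6 mm. Minsoy had 7.37, 7.20 and 7.77, then 7.59, 7.40 and 7.39, then 7.20, 6.63 and 8.66. Archer was higher without overlap at 2 and 3.5 mm. In 2008 Archer had 6.64, 6.35 and 6.05, then 6.21, 6.01 and 6.00, then 5.80, 6.02 and 5.74. Minsoy had 5.86, 6.50 and 6.38, then 6.69, 6.97 and 6.50, then 6.92, 6.89 and 6.62, which was higher without overlap at 3.5 and 5-6 mm. With all arrays, Archer minus Minsoy was 0.55 (adjusted p = 0.0718) in 2007 and -0.50 (adjusted p = 0.218) in 2008, neither called. Without the 2 Minsoy arrays of intermediate line score the 2007 value was 0.65. The change between years was -1.05 (SE 0.28, adjusted p = 0.0384) with all arrays. Other MYB60 probe sets gave -0.73 (adjusted p = 0.322) and -0.53 (adjusted p = 0.385), so the call rests on 1 probe set. It was lost in 23 of 47 alternatives, mostly on leaving out a single array, with values of -1.25 to -0.91 over all of them.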

How the data were processed

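Total RNA of whole soybean seeds was hybridized to 54 Affymetrix arrays, 1 per sample. The authors deposited log2 values, made with GCRMA per the submitters' processing notes (no version given). Differences were taken within the 3 sets, whose values were apparently normalized apart. After removal of 174 control probe sets, 26482 passed the filter (log2 of at least 5 on 3 or more arrays). A single limma fit (version 3.58.1, R 4.3.3) with 18 group means covered all arrays, and contrasts were tested with eBayes, with Benjamini-Hochberg adjustment over all probe sets and a threshold of 0.05; a gene is called, or rose or fell, when it passed. The number of arrays, 3 per group, limits the precision.

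Members and lists were chosen with earlier results of these data known. Genes named were up to 6 called each way per contrast, those called in at least 2 sets, those called for line, and genes of known function; MYB114, MYB134, MYB145, MYB186, MYB11 and MYB133 were in part chosen after their values were seen. Planned classes by protein sequence were not made, since no sequence was used here. Of the 44 genes, 40 were found in the RefSeq gene table, and no 2 members lay within 10 genes of each other.

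Replicate numbers mark planting blocks in 2008 per the labels. Deviations of same-numbered arrays of the 2 lines correlated at -0.25 to 0.48 in 2008 and at -0.47 to 0.55 in the parents of 2007. On simulated data over 26482 probe sets, with independent normal noise and few changed probe sets, changes of log2 1 were recovered at 68% (line difference between years) to 86% (parents 2007). False calls made up 4.46% to 8.92% of the calls. Deviations of the real arrays were correlated and many more probe sets changed, so these shares may not hold for them. Alternatives tried were a stricter and no filter, array weights, only the arrays of the sets compared, the stage score as a covariate, the replicate block, each array left out, and the arrays that stood apart left out.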

Additional observations from a re-analysis of the deposited data

Results flagged for a closer look

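Differences between years in the parents, 3 in all, were marked because the difference itself was tested and called by limma with Benjamini-Hochberg adjustment. The years also differed in field layout and their values were apparently normalized apart, so these cannot be told apart from year. The Archer minus Minsoy difference of MYB60 was lower in 2008 than in 2007 by -1.05 (SE 0.28, adjusted p = 0.0384). Without the 5 arrays that stood apart by stage or line score it was -1.20. The MYB60 call was lost in 23 of 47 alternatives. Other probe sets of the gene gave -0.73 (adjusted p = 0.322) and -0.53 (adjusted p = 0.385), neither called. The stage change of MYB51 was less negative in 2008 than in 2007 by 1.69 (SE 0.43, adjusted p = 0.0298), and it was 1.27 (adjusted p = 0.159) without the 5 arrays. The stage change of MYB68 was smaller in 2008 than in 2007 by -2.50 (SE 0.65, adjusted p = 0.0330), and it was -1.59 (adjusted p = 0.284) without them. Over all probe sets 2.27% had a stage change that differed between the years.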

How the results depend on the processing

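Of 58 calls of a MYB gene in a contrast, 29 kept direction and call in every alternative run and 29 lost the call in at least 1; none of the 1648 combinations reversed. The 2008 stage count of 7 was 19 with array weights, 3 when only the arrays of the sets compared were fitted, 17 without the 3 arrays placed at another stage and 18 without those and the 2 Minsoy arrays. The 2007 stage count of 24 was 14 without the 2 Minsoy arrays. The 2007 parental line count of 2 was 5 with array weights, 1 with the stage score as a covariate and 4 with 5 arrays left out; the 2008 line count of 2 was 13 with array weights. The recombinant line count of 1 was 2 with array weights, with the covariate, without the 3 arrays and without the 2 arrays with the other line's score, and 3 without the 4 arrays of high actin difference, without both kinds or without the 5. The year difference count of 1 was 2 with array weights and 0 with the covariate. Leaving out 1 array at a time gave 19 to 26 for stage in 2007, 0 to 13 for stage in 2008, 15 to 22 for stage in the recombinant lines, 2 to 6 and 1 to 3 for the parental lines, 0 to 2 for the recombinant lines and 0 to 2 for the year difference. In 2008 the stage count was 0 without replicate 2 or 3 of Minsoy at 2 or at 5-6 mm, 4 without Archer 2 mm replicate 1 or 5-6 mm replicate 3, 13 without Minsoy 2 mm replicate 1 and 12 without Minsoy 5-6 mm replicate 1. The 2007 line count was 6 without Minsoy 5-6 mm replicate 1, the 2008 line count was 1 without any of the arrays named for MYB179 except Minsoy 3.5 mm replicate 3, and the recombinant line count was 0 without low yield 5-6 mm replicate 2. The share of all probe sets called is not set beside the counts here and in the next paragraph. That share also moved with the arrays used, as given above for the fit without the 3 arrays. These counts are therefore not a result about the MYB genes alone. The causes were not tested.

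With the replicate number as a block, the counts were 25, 7 and 20 for stage in the 3 sets, 3, 3 and 1 for line, and 1 for the year difference; 24, 7, 19, 2, 2, 1 and 1 of these were among the reported calls. The pairing moved no count by over 1.5 times. Array weights were estimated gene by gene because the default estimate did not converge; this and every setting that leaves out more than 1 array were chosen after seeing the data. With 2 Minsoy arrays left out, the lone array of that group is assumed to vary like the other groups.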

Other observations

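Probe sets annotated to a pair of MYB genes were outside the counts above. One for MYB62 and MYB52 changed between 2 and 5-6 mm by 0.30 (adjusted p = 0.0814) in the parents of 2007, -0.14 (adjusted p = 0.566) in 2008 and 0.36 (adjusted p = 0.0488) in the recombinant lines. One for MYB143 and MYB183 changed by 0.18, 0.22 and 0.04, none called, but in 2008 it was lower in Archer than in Minsoy (-0.38, adjusted p = 0.00359), while it was 0.02 (adjusted p = 0.923) in 2007. The probe sets shared by MYB50 and MYB112 and by MYB93 and MYB180 were not called in any set, while MYB50 and MYB112 alone were called as lower in 2007.

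The UDP-glycosyltransferase gene UGT708D1 was higher in Archer than in Minsoy in 2007 (2.93, adjusted p = 0.00322) and in 2008 (5.62, adjusted p = 1.45e-07), and higher in the high yield line (4.69, adjusted p = 7.54e-06). It was 9.46 in replicate 1 of the low yield line at 2 mm, against 2.63 and 2.35 in the other replicates. At 5-6 mm the low yield line had 8.33, 2.49 and 7.67, and the high yield line 8.20, 9.51 and 10.30. The clock gene LCL3 was higher in Archer by 0.81 in 2007 and 0.79 in 2008 and higher in the high yield line by 0.82, all called.

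Another probe set of MYB83 rose by 0.19 in the recombinant lines (adjusted p = 0.0160), where the one used above had 0.26 (adjusted p = 0.0632), and was lower in the high yield line by -0.17 (adjusted p = 0.0471). Another probe set of MYB50 had -0.14 in 2007 (adjusted p = 0.506).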
